A study of Mus musculus with 6 samples.

Results

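Genes of antigen presentation by the major histocompatibility complex (MHC) were examined in RNA-seq values from mouse libraries labelled as E12.5 embryo. All symbols beginning with H2- were taken, together with B2m, Tap1, Tap2, Tapbp, Psmb8, Psmb9, Psmb10 and Cd74, which gave 26 of the 7101 genes in the deposited table. They comprised 14 class I heavy chain genes, 5 class II genes including Cd74, and 7 genes for beta-2 microglobulin and for peptide supply and loading. GENCODE M21 holds 45 genes beginning with H2-, of which 16 were in the table and 29 were not analysed here. The libraries were 3 wild type and 3 knockout for lnc956, a long noncoding RNA, all labelled as whole embryos of strain C57BL/6N at E12.5. The labels give no further allele, treatment or sex, and do not say how the knockout was made or whether the replicates came from separate embryos, so the p-values cover the spread among these libraries, which may be technical. The level of lnc956 was not analysed here, and the genotypes rest on the labels.

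MHC class I molecules display peptides from inside the cell to cytotoxic T cells and natural killer cells. A heavy chain, encoded in the mouse by H2-K1, H2-D1 and the less polymorphic Q, T and M genes, pairs with beta-2 microglobulin (B2m). The peptides are cut by the proteasome, in which the inducible subunits Psmb8, Psmb9 and Psmb10 can replace the constitutive ones, carried into the endoplasmic reticulum by Tap1 and Tap2, and loaded with the help of tapasin (Tapbp). Class II molecules are made mainly by professional antigen-presenting cells, with the invariant chain Cd74 as their chaperone. Embryonic tissues at mid-gestation carry little class I, and interferon gamma, which natural killer cells make in the pregnant uterus, induces it.

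The genes of the table differed nearly all, and markers of embryonic tissue were scarce in the libraries labelled knockout. Of its 7101 genes, 3643 had a higher mean in knockout, 3458 had a lower one, and 10 differed by a log2 ratio under 0.5. With limma on log2(FPKM + 1), where FPKM is fragment count scaled to transcript length and library size, 6256 of 6487 tested genes passed a Benjamini-Hochberg adjusted p under 0.05. This is 96.4% of them, with 47.2% higher and 49.2% lower in knockout. A count of genes past this threshold therefore says little, and the size of a change says more. The median log2 change over all tested genes was 0.38, with quartiles of −1.88 and 1.32. The table holds almost only genes that differ, and how they were chosen is not stated. Since so few genes had a ratio near that median, it does not stand for a typical gene. All 4 neuron markers in the table (of 8 listed), all 7 of skeletal muscle and heart (of 8) and all 7 of erythroid cells (of 8) fell, the summed neuron level going from between 554 and 595 FPKM to between 1.37 and 17.9 FPKM. Testing required 1 FPKM in at least 3 libraries, which 3 neuron, 3 muscle and heart and 3 erythroid markers reached in wild type alone. Of 12 trophoblast markers 10 were in the table and 7 could be tested, and all 7 rose. Of these 7, 5 passed this filter through the knockout libraries alone, so a fall could not have been seen for them. Summed over the 10, the level was between 3.95 and 5.85 FPKM in wild type and between 13962 and 27005 FPKM in knockout. All 8 decidual stroma markers rose. Of these, Bmp2 (log2 change 0.67) did not pass without wild-type replicate 3 (limma adjusted p = 0.0613). Wnt4 (log2 change 0.48) did not pass with a replicate block (0.0661) or without any single library other than knockout replicate 1 (0.0545 to 0.111). Prl8a2 was the most abundant, at 7136, 6609 and 6097 FPKM in knockout replicates 1 to 3 against at most 1.44 FPKM in wild type. The markers of the libraries labelled knockout thus go against their label as whole embryo, and every difference given here is between libraries so labelled. In bulk RNA, more cells of a type and more RNA per cell cannot be told apart, and the part of these markers in the results that follow was not tested. The relative depth of replicates 2 and 3, read from the spacing of low values, was 0.93 and 1.06 times replicate 1 in wild type and 1.08 and 1.03 times replicate 1 in knockout. Depth in reads was not given.

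The upstream sequences of the class I genes are shown first. H2-Q10, alone among the 26 genes, was lower in knockout. It shares the response element letters of H2-K1 and H2-D1, and the other motifs searched were not found upstream of it. Whether any motif bears on the changes was not tested. RefSeq promoter sequences on GRCm38.p6 matched 17 of the 26 genes. Each was searched on both strands, over 250 bases upstream of the annotated start, for letters of the interferon-stimulated response element in the forms GAANNGAAA, GAAANNGAA and GAANNNGAA, of which the last 2 can overlap, for the gamma-activated sequence TTCNNNGAA, and for GGGATTCCC, the core of the kappa-B site of the class I enhancer. The first form was found in H2-K1, H2-D1, H2-Q4, H2-Q7, H2-Q10 and H2-M3, against 6.31% of all 32851 promoters. The kappa-B letters were found in H2-K1, H2-D1 and H2-Q7, against 0.301% of all promoters, and TTCNNNGAA in Psmb8 and H2-M3, against 7.02%. The 30 bases ending at the response element are given for 5 of the 6 genes, leaving out H2-M3, 5′ to 3′ in the direction of the gene, with the kappa-B letters and the reverse complement of GAANNGAAA in capitals.
H2-K1 (chr17:34000429-34000458, minus strand): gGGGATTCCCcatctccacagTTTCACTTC
H2-D1 (chr17:35262923-35262952, plus strand): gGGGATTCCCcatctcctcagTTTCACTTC
H2-Q4 (chr17:35379443-35379472, plus strand): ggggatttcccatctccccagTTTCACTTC
H2-Q7 (chr17:35439021-35439050, plus strand): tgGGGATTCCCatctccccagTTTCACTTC
H2-Q10 (chr17:35469913-35469942, plus strand): gaggactccccatctccccagTTTCACTTC
The same 9 letters of the response element stand in all 5 windows. Counting positions from 1 at the 5′ end of the window, H2-D1 differs from H2-K1 by A18T and H2-Q10 differs from H2-K1 by G2A, T6C and A18C. The first 2 of the H2-Q10 differences fall within the kappa-B letters of H2-K1. H2-Q4, which was higher in knockout, differs from H2-K1 by C8T and A18C, and its C8T also falls within these letters. H2-M3, which is not shown and was also higher in knockout, differs from H2-K1 at 16 of the 30 bases. A match or its lack describes these letters only.

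B2m, whose product is shared by every class I molecule, has other forms of the response element upstream. The 249 bases before its annotated start (chr2:122147437-122147685, GRCm38.p6, plus strand) are given with capitals on overlapping matches to GAAANNGAA and GAANNNGAA, on TGACG, a cyclic AMP response element-like motif, and on ATTGG, the reverse complement of the CCAAT box.
B2m: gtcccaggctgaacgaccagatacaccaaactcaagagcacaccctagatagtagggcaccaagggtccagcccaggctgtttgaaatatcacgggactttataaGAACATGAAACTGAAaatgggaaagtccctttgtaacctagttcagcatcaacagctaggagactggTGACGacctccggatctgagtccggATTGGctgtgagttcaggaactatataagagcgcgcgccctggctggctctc
GAAANNGAA was found in 3 of the 17 matched promoters, those of B2m, H2-T23 and H2-T22, and in 7.13% of all promoters. GAANNNGAA was found in the same 3 and in H2-M3, and in 18.1% of all promoters. TGACG was found in 10 of the 17 and in 17.8% of all promoters, and CCAAT in 14 of the 17 and in 33.8%. H2-K1, H2-D1, H2-Q4, H2-Q7 and H2-M3 held both TGACG and CCAAT, and H2-Q10 held neither. Psmb8, which was higher in knockout, was among the 17 and also held neither.

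Class I transcripts were far more abundant in the knockout libraries. Of the 14 heavy chain genes 13 rose and H2-Q10 fell, where 47.2% of all tested genes rose and 49.2% fell. Their median log2 change was 3.17, against a median of 0.38 and an upper quartile of 1.32 for all genes tested. All 26 genes could be tested, but 9 of them were under 1 FPKM in every wild-type library and passed the filter on low values through the knockout libraries. The groups of libraries did not overlap for any of the 26, which is the case for 95.6% of the genes in the table; every knockout library was above every wild-type library for 25, and for 47.1% of the table. By ratio of mean FPKM, 21 of the 26 were at least 10-fold higher in knockout, against 10.8% of the table.

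**Figure D1:**
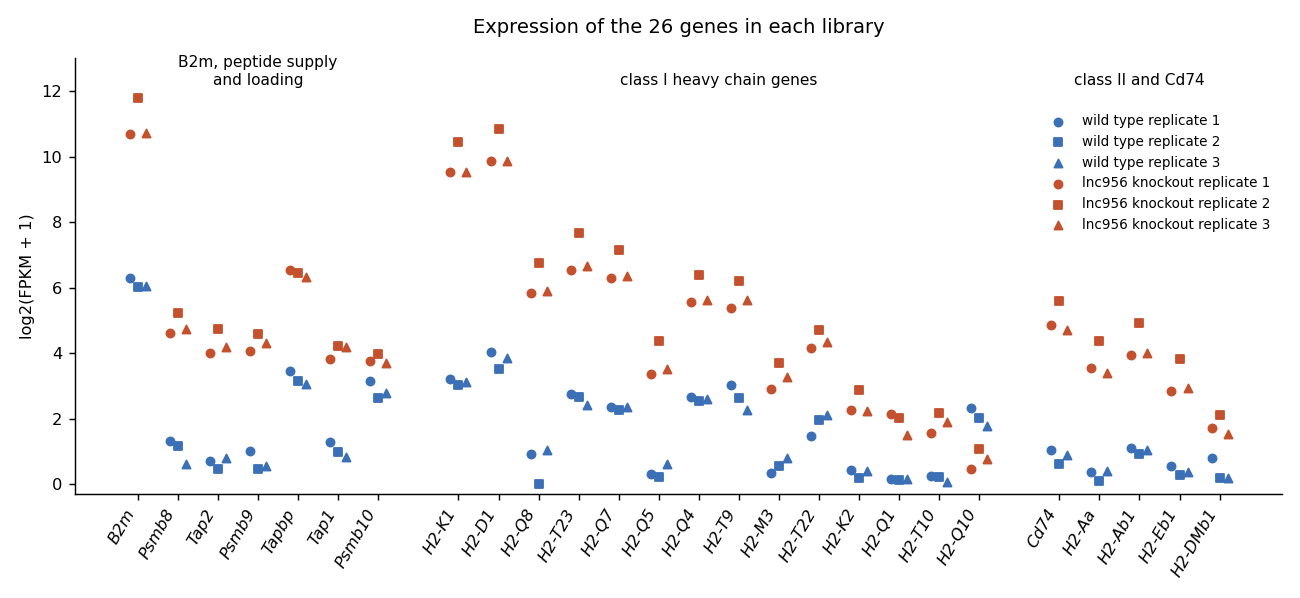
Level of each of the 26 genes as log2(FPKM + 1), with 1 point per library (blue, wild type; red, knockout; the symbol gives the replicate). The red points lie above the blue for 25 genes and below them for H2-Q10, and the red square of replicate 2 is the highest knockout point for 24 of the 26.

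The classical heavy chain gene H2-K1 (chromosome 17, 33996017 to 34000347 in GRCm38) stood at 8.21, 7.21 and 7.75 FPKM in wild-type replicates 1 to 3 and at 734, 1404 and 738 FPKM in knockout replicates 1 to 3. The lowest knockout library was 89.4 times the highest wild-type one. Its log2 change was 6.71 (SE 0.26, limma adjusted p = 8.24e-07), the 58th largest of the 6487 genes tested. H2-D1, the other classical gene of this strain (chromosome 17, 35262730 to 35267499), stood at 15.4, 10.5 and 13.6 FPKM in wild type and at 928, 1829.9 and 929 FPKM in knockout. Its log2 change was 6.38 (SE 0.29, limma adjusted p = 1.24e-06). H2-D1 was above H2-K1 in all 6 libraries, and the knockout values of both placed them among the 56 most abundant genes of the table in each knockout library, where in wild type their ranks ran from 1964 to 3210.

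B2m (chromosome 2, 122147686 to 122153083), which lies outside the MHC, was the most abundant of the 26 genes in every library. It stood at 78.3, 64.4 and 64.6 FPKM in wild type and at 1639, 3521 and 1696 FPKM in knockout, with a log2 change of 4.94 (SE 0.30, limma adjusted p = 3.98e-06). The ratio of means was 33.1 for B2m, against 124 for H2-K1 and 93.4 for H2-D1. H2-K1 and H2-D1 together came to 0.302 ± 0.0273 times the B2m level in wild type and 0.972 ± 0.0487 times in knockout (mean ± SD, n = 3 in each group throughout). In the 3 wild-type libraries the ratio was 0.301, 0.275 and 0.33, and in the 3 knockout libraries 1.01, 0.918 and 0.983, so the groups did not overlap. This ratio is taken within a library and does not depend on how libraries are scaled.

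The classical pair made up a larger part of the class I total in knockout than in wild type. Summed over the 14 genes, class I stood at 53.7, 43.8 and 47.2 FPKM in wild type and at 2014, 3910 and 2052 FPKM in knockout. H2-K1 and H2-D1 gave 43.2% ± 2.39 of that sum in wild type and 82.1% ± 0.8 in knockout. H2-T23, which encodes Qa-1, the ligand of the natural killer receptor CD94/NKG2A, stood at 5.74, 5.27 and 4.39 FPKM in wild type and at 91.2, 203 and 101 FPKM in knockout (log2 change 4.35, SE 0.30, limma adjusted p = 7.33e-06). H2-Q7, which encodes the Qa-2 antigen, stood at 4.09, 3.76 and 4.08 FPKM in wild type and at 77.0, 140.4 and 81.6 FPKM in knockout (log2 change 4.28, SE 0.24). H2-M3, which presents formylated bacterial peptides, rose from 0.499 ± 0.238 to 9.06 ± 2.71 FPKM. H2-T22, a ligand of some gamma-delta T cells, rose from 2.65 ± 0.819 to 20.5 ± 4.35 FPKM, a ratio of means of 7.74, and its relative H2-T10 from 0.132 ± 0.0706 to 2.72 ± 0.809. H2-Q8 was uneven in wild type, at 0.895, 0.000407 and 1.05 FPKM, and stood at 55.9, 107 and 58.2 FPKM in knockout. The others that rose, H2-Q1, H2-Q4, H2-Q5, H2-T9 and H2-K2, had wild-type means from 0.103 to 5.4 FPKM and knockout means from 2.77 to 59.3 FPKM. H2-K2, H2-Q5 and H2-T10 are annotated as pseudogenes in GENCODE M21, and H2-Q8 and H2-T9 had no gene there.

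How reads were divided among these similar genes is uncertain. Of all 50-base windows in the annotated transcripts of a gene, the share also found in transcripts of another H2- gene was 9.63% for H2-K1, 9.69% for H2-T23 and 10.9% for H2-D1. It was 25.1% for H2-Q7, 36.4% for H2-Q5, and 32.4% and 34.4% for H2-T10 and H2-T22, whose windows are shared mostly with each other. For B2m, Tapbp, Psmb8, Psmb9, Psmb10, Cd74, H2-Aa, H2-Ab1 and H2-Eb1 no window was shared with any of the genes compared.

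H2-Q10 (chromosome 17, 35470089 to 35474563), a secreted class I molecule made by the liver, went the other way. It stood at 3.97, 3.03 and 2.45 FPKM in wild type and at 0.365, 1.09 and 0.702 FPKM in knockout, and every wild-type library was above every knockout library. The log2 change was −1.28 (SE 0.20, limma adjusted p = 0.000513). Of the 50-base windows of its transcripts 18.4% occur in another H2- gene, and 14% occur in H2-Q7, which rose; the part of shared reads in its values was not tested.

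**Figure D2:**
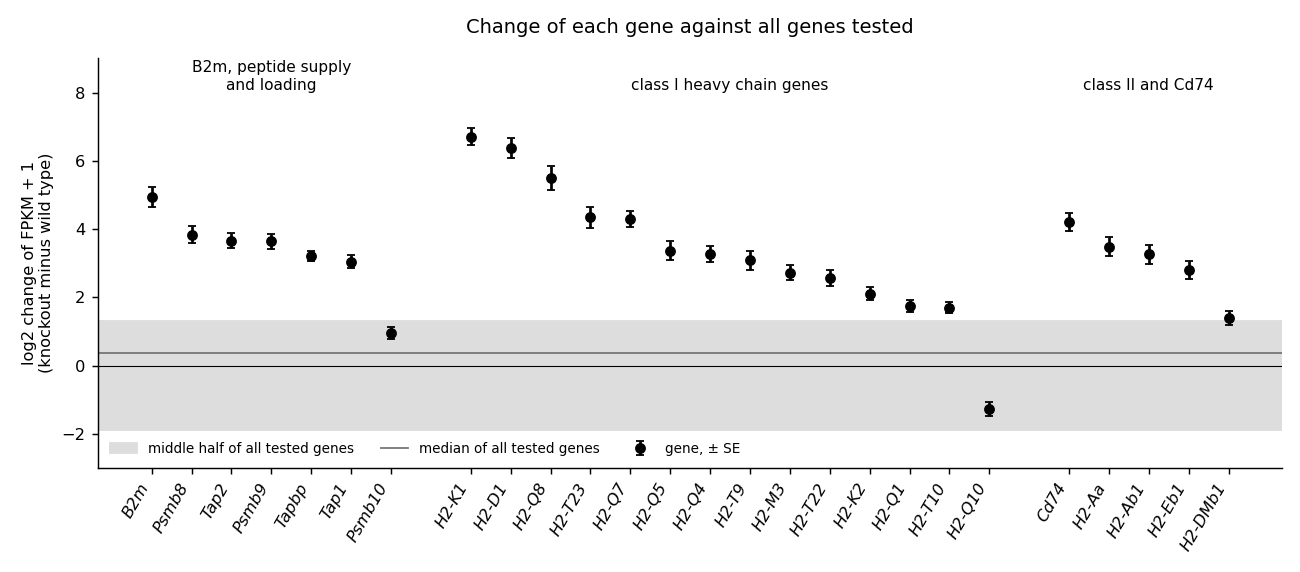
Log2 change of FPKM + 1, knockout minus wild type, with its standard error from limma for each gene, against the quartiles (grey band, −1.88 to 1.32) and median (grey line, 0.38) of the 6487 genes tested. All but Psmb10 and H2-Q10 lie above the band, and H2-K1 is the highest at 6.71.

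Genes for peptide supply and loading rose with the heavy chains, with Psmb10 the smallest change. All 7 rose, B2m included, as did 47.2% of all tested genes, and their median log2 change was 3.64. Psmb8, an inducible proteasome subunit, stood at 1.49, 1.24 and 0.545 FPKM in wild type and at 23.6, 36.6 and 25.9 FPKM in knockout (log2 change 3.83, SE 0.25, limma adjusted p = 5.1e-06). Psmb9, another such subunit, stood at 1.02, 0.366 and 0.482 FPKM in wild type and at 15.7, 23.1 and 18.7 FPKM in knockout (log2 change 3.64, SE 0.22). Psmb10, the third inducible subunit, encoded on chromosome 8 outside the MHC (105935735 to 105938444), stood at 7.79, 5.22 and 5.93 FPKM in wild type and at 12.4, 14.7 and 11.9 FPKM in knockout. Its log2 change of 0.95 (SE 0.18, limma adjusted p = 0.0014) was within the quartiles of all tested genes. The subunit in excess therefore differed: Psmb10 was at 4.21 to 10.9 times the Psmb8 level in wild type and at 0.402 to 0.527 times in knockout. The ratio of Psmb9 to Psmb8 overlapped between the groups, at 0.621 ± 0.3 and 0.672 ± 0.0443.

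The transporter genes Tap1 and Tap2 were both near or under 1 FPKM in wild type. Tap1 stood at 1.46, 0.96 and 0.762 FPKM in wild type and at 13.2, 17.5 and 17.1 FPKM in knockout (log2 change 3.04, SE 0.19, limma adjusted p = 4.4e-06). Tap2 stood at 0.643, 0.379 and 0.724 FPKM in wild type and at 15.2, 25.8 and 17.1 FPKM in knockout (log2 change 3.66, SE 0.22). Tap1 and Psmb9 are divergent neighbours whose RefSeq starts lie 226 bases apart on chromosome 17, at 34187556 and 34187330, and their ratios of means were 15 and 30.8. Tapbp, the tapasin gene, was higher than both transporters, at 9.84, 7.89 and 7.35 FPKM in wild type and 92.4, 85.5 and 78.5 FPKM in knockout (log2 change 3.21, SE 0.15, limma adjusted p = 1.37e-06). Of the 26 genes 21 lie on chromosome 17 between 33915899 and 37274484 in GENCODE M21. The deposited values came without coordinates, and the submitters' processing notes name both mm9 and mm10, so positions here are those of the annotation.

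Class II genes also rose, and their summed level was below that of class I in every library. All 5 passed the threshold with higher values in knockout, as did 47.2% of all tested genes, and their median log2 change was 3.26. Of the 5, 3 were under 1 FPKM in every wild-type library and passed the filter on low values through the knockout libraries. Cd74, the invariant chain, stood at 1.04, 0.517 and 0.863 FPKM in wild type and at 27.8, 46.8 and 25.3 FPKM in knockout (log2 change 4.21, SE 0.26, limma adjusted p = 4.02e-06). H2-Ab1, which encodes the beta chain of the I-A molecule, stood at 1.14, 0.907 and 1.08 FPKM in wild type and at 14.5, 29.4 and 14.9 FPKM in knockout. H2-Aa, the alpha chain of the same molecule, rose from 0.224 ± 0.142 to 13.3 ± 5.64 FPKM and H2-Eb1, a beta chain, from 0.317 ± 0.128 to 8.62 ± 3.78 FPKM. H2-DMb1, a subunit of the peptide exchange factor of class II, stood at 0.723, 0.146 and 0.128 FPKM in wild type. In knockout it was the lowest of the 5, at 2.28, 3.3 and 1.89 FPKM. Of its 50-base windows 22.7% occur in H2-DMb2, which was not analysed here.

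Set against class II, class I was in excess in every library, and whether the excess grew depended on the summary. The class I sum was 14.7, 23.7 and 17.7 times the class II sum in wild type and 32.8, 34.8 and 35.2 times in knockout, a 1.83-fold higher mean ratio. The median class I gene was 8.94 ± 5.01 times the median class II gene in wild type and 2.91 ± 0.609 times in knockout, a change in the other direction (0.326-fold). The sum rests on H2-K1 and H2-D1, whose ratios of means were 124 and 93.4. Across the other class I genes that rose these ratios ran from 7.74 for H2-T22 to 114 for H2-Q8, and across class II from 7.48 for H2-DMb1 to 59.4 for H2-Aa. The ranges of the classes thus overlapped apart from the classical genes and H2-Q8.

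**Figure D3:**
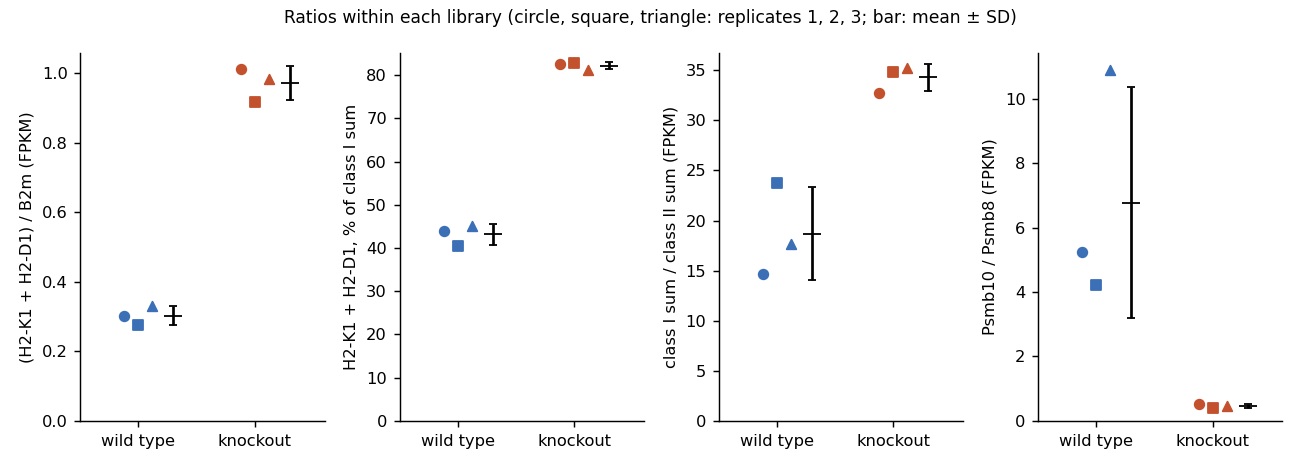
Ratios of FPKM within each library (symbols as in the plot of levels; the bar gives mean ± SD, n = 3), from left to right H2-K1 plus H2-D1 over B2m, their share of the class I sum in percent, the class I sum over the class II sum, and Psmb10 over Psmb8. No knockout point overlaps a wild-type point: the first 3 ratios lie higher in knockout and the last lies lower.

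Within the knockout group, replicate 2 stood apart for the presenting molecules and less so for the loading machinery. It was the highest knockout library for 24 of the 26 genes, against 50.4% of the 3643 genes with a higher mean in knockout. Among the 769 genes at least 10-fold higher in knockout the share was 58.4%. B2m in replicate 2 was 2.11 times the mean of replicates 1 and 3. Over the 13 class I genes that rose this ratio had a median of 1.74 and ran from 1.18 for H2-Q1 to 2.11 for H2-T23, and over class II it had a median of 1.96. It was above 1.5 for 11 of the 13 and for 5 of 5 class II genes, against 22.0% of the genes higher in knockout and 35.1% of those at least 10-fold higher. Over the 6 supply and loading genes other than B2m the median was 1.28, with Tapbp at 1.0, Tap1 at 1.16 and Tap2 the highest at 1.6. Leukocyte markers moved in the same way: all 6 in the table were highest in replicate 2, with a median ratio of 1.74, as for Ptprc, the pan-leukocyte gene CD45, at 5.93, 11.2 and 6.59 FPKM. Macrophage markers had a median of 1.84, natural killer markers 1.4, endothelial and decidual stroma markers 1.33 and 1.3, and the 10 trophoblast markers 0.427. Single genes spread widely around these medians. The ratio was above 1.5 for 4 of 6 leukocyte, 6 of 7 macrophage and 2 of 5 natural killer markers. It was above 1.5 for 1 of 4 endothelial and 3 of 8 decidual stroma markers. The macrophage gene Csf1r was at 0.698, the endothelial Emcn at 2.3 and the decidual Dcn at 2.06. The trophoblast genes ranged from Gcm1, listed at 0 in replicate 2, to Ctsj at 1.41, with the abundant Prl3b1 and Prl7d1 at 1.04 and 0.961. Without replicate 2, the log2 changes were 6.40 for H2-K1, 6.05 for H2-D1, 4.58 for B2m, 3.94 for Cd74 and −1.43 for H2-Q10. The part of these markers in the replicate 2 values was not tested.

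**Figure D4:**
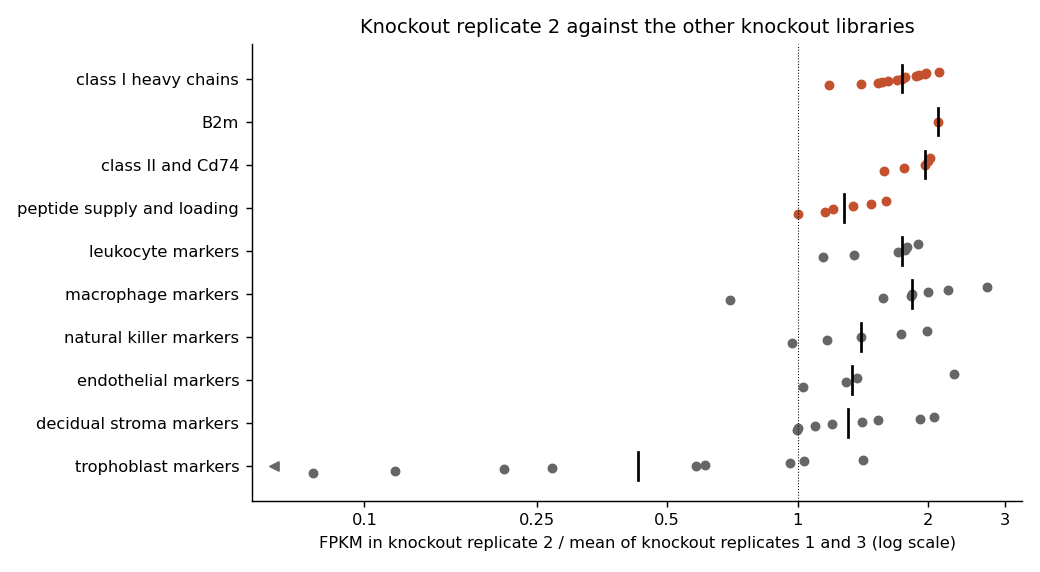
FPKM in knockout replicate 2 divided by the mean of knockout replicates 1 and 3 (log scale), with 1 point per gene and a bar at the median; red, genes of antigen presentation other than H2-Q10; grey, marker lists; the arrow marks Gcm1, which was at 0 in replicate 2. Class I, B2m, class II, leukocyte and macrophage medians lie between 1.74 and 2.11, whereas the loading genes have a median of 1.28 and the 10 trophoblast markers, which spread from 0 to 1.41, one of 0.427.

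Markers of cells that carry class I and class II also differed between the libraries labelled wild type and knockout. All 6 leukocyte markers in the table, of 8 listed, rose, as did 47.2% of all tested genes. Of these 6, 2 passed the filter on low values through the knockout libraries alone. The summed level of the 6 went from between 13.5 and 14.7 FPKM to between 81.0 and 135 FPKM. All 5 natural killer markers in the table, of 9, rose, from a sum of at most 3.83 FPKM to between 333 and 605 FPKM, as for the perforin gene Prf1 at 105, 292 and 189 FPKM in knockout. Of these 5, 4 passed the filter on low values through the knockout libraries alone. Of 12 macrophage markers 7 were in the table, of which 5 rose. C1qa and C1qc did not pass (log2 changes 0.56 and 0.51, limma adjusted p = 0.129 and 0.111), whereas both passed after trimmed-mean rescaling (0.0338 and 0.0172). C1qa also passed without knockout replicate 3 (0.0344) and C1qc without wild-type replicate 1 (0.0494). The list's sum was 32.8 to 50.1 FPKM in wild type and 372 to 601 FPKM in knockout. Of 7 endothelial markers 4 were in the table, of which 3 rose. Emcn did not pass (log2 change 0.50, limma adjusted p = 0.17), though it did after trimmed-mean rescaling (0.0441) and without knockout replicate 3 (0.0352). Cdh5 stood at 19.8 ± 2.6 FPKM in wild type and 308 ± 9.51 in knockout. Of 8 dendritic cell markers 5 were in the table, and Zbtb46, the one that could be tested, fell (log2 change −1.17). The other 4, Itgax, Flt3, Clec9a and Ccr7, were too low to test and had higher means in knockout, with ratios of 23.1, 4.99, 3.21 and 2.85. With no filter on low values, 3 dendritic cell markers passed as higher in knockout. Itgax, the gene of the integrin CD11c, was listed at 0 in wild-type replicate 2 and reached 1.26, 1.96 and 0.6 FPKM in knockout. The 5 B cell markers were not analysed here, and of the T cell markers Cd247, which natural killer cells also express, rose and Lck fell. None of these markers was tested as a cause of the class I and class II values.

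Class I and class II levels were also set against Ptprc and against the endothelial gene Cdh5, which themselves had ratios of means of 18.8 and 15.5. B2m was at 125 to 216 times the Ptprc level in wild type and at 257 to 314 times in knockout, a 1.64-fold higher mean, and Cd74 at 1.67 to 2.34 and 3.84 to 4.69 times, a 2.21-fold higher mean. H2-K1 was at 15 to 24.2 times the Ptprc level in wild type and 112 to 125 times in knockout, a 6.26-fold higher mean. Tapbp over Ptprc overlapped between the groups, at 20.9 ± 6.21 in wild type and 11.7 ± 3.98 in knockout. Ptprc was at 0.299 to 0.518 FPKM in wild type, so these wild-type ratios are imprecise. Over Cdh5 the mean ratio was 2.12-fold higher in knockout for B2m, 2.68-fold for Cd74 and 7.91-fold for H2-K1. Tapbp over Cdh5 went the other way without overlap, at 0.421 ± 0.0246 in wild type and 0.277 ± 0.0163 in knockout. Division by a gene that is itself higher in knockout lowers any such ratio in knockout relative to wild type.

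Known regulators of MHC genes were among those that rose. Of 14 listed, 6 were in the table, of which 5 rose and Nfyb fell. Nlrc5, the transactivator of class I genes, was at 0.0138, 0.00743 and 0.013 FPKM in wild type and at 3.66, 6.3 and 4.58 FPKM in knockout (log2 change 2.51, SE 0.17, limma adjusted p = 6.39e-06). Ciita, its counterpart for class II, was not analysed here. Irf1, an interferon-induced transcription factor, rose from 2.91 ± 0.179 to 11.7 ± 2.8 FPKM. Irf8, a factor of myeloid cells, rose from 1.52 ± 0.274 to 24.1 ± 3.65 FPKM. Nfyb, a subunit of the factor that binds the CCAAT box, fell from 23.2 ± 0.999 to 6.73 ± 0.0312 FPKM (log2 change −1.65). All 7 interferon gamma signalling genes in the table, of 10 listed, rose, as did 47.2% of all tested genes. Their median log2 change was 1.40, close to the upper quartile of all tested genes (1.32), whose median was 0.38. Ptpn2, a phosphatase of this pathway, had the smallest change (log2 change 0.49, limma adjusted p = 0.0189) and did not pass with quantile normalization (0.226), a replicate block (0.0502) or without wild-type replicate 1 (0.0647). The receptor gene Ifngr1 and the kinase gene Jak1 rose by log2 changes of 0.73 and 1.40. Ifng itself was not analysed here.

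Other genes of the class I and class II routes rose as well. All 8 folding and loading genes in the table, of 9 listed, rose, as did 47.2% of all tested genes. Their median log2 change of 1.22 was within the quartiles of all tested genes (−1.88 to 1.32). Erap1, which trims peptides in the endoplasmic reticulum, rose from 1.41 ± 0.156 to 8.72 ± 1.4 FPKM, and Tapbpl, a tapasin relative, from 1.08 ± 0.263 to 5.85 ± 1.29. The general chaperone genes Calr (406 ± 60.6 to 925 ± 116 FPKM) and Pdia3 (195 ± 11.4 to 388 ± 41.0 FPKM) had log2 changes of 1.19 and 0.99, whose direction turned with quantile normalization (−0.30 and −0.13). The 15 constitutive proteasome genes listed, among them Psmb5, Psmb6 and Psmb7, and the 4 proteasome activator genes were not analysed here. All 7 class II processing genes in the table, of 9 listed, rose. Their median log2 change was 2.64, above the upper quartile of all tested genes (1.32), whose median was 0.38. Ctss, the protease that completes the removal of the invariant chain, stood at 5.4, 4.4 and 5.06 FPKM in wild type and at 25.4, 49.2 and 19.8 FPKM in knockout, and Ctsl rose from 49.5 ± 2.61 to 757 ± 140.5 FPKM. Ctsl is also abundant in placenta, so its place on the list is not specific to antigen presentation.

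The genes whose profiles over the 6 libraries lay closest to those of B2m, H2-K1 and Cd74 were found by the root mean squared distance of log2(FPKM + 1) from the wild-type mean. The nearest to B2m were Qpct, Fos and Cd55, at distances of 0.134, 0.143 and 0.159 on the log2 scale. For H2-K1 they were Ctla2b, Adm and Padi2, at 0.166, 0.17 and 0.195. For Cd74 they were Cldn1, Tnfrsf1b and Sat1, at 0.111, 0.128 and 0.138. Each of these genes was highest in knockout replicate 2. This follows from their choice, since B2m, H2-K1 and Cd74 were themselves highest there. Cd55, an inhibitor of complement, was at 60.5, 147 and 73.8 FPKM in knockout and at most 1.95 FPKM in wild type.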

How the data were processed

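The deposited table holds 1 value per gene and library, from total RNA. Its header gives no unit; the values are read as FPKM computed by the authors, because Cufflinks is the sole quantifier among the tools. TopHat2 2.0.8, Cufflinks 2.1.1, mm9 and mm10 are listed without roles, per the submitters' processing notes. How the 7101 genes were chosen is not stated, and adjusted p-values apply to them alone. Since FPKM is relative to the library, very abundant transcripts depress the rest.

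The scale was log2(FPKM + 1), which compresses changes of low genes. Of the genes, 6487 reached 1 FPKM in 3 or more libraries and 614 did not and were left untested. limma 3.58.1 (R 4.3.3, trend and robust on) tested knockout minus wild type, two-sided, without covariates, adjusting by Benjamini-Hochberg over the tested genes at a threshold of 0.05. An exact test of 3 against 3 cannot go below p = 0.1, so none is given. Scripts were tested on simulated data. Members, gene lists and the naming rule were chosen with earlier results of these data known. Named are all members, the 2 genes of smallest p in each direction of a pathway list or with a role paired to a member, up to 3 of highest mean in a marker list, and the 3 nearest profiles; other genes named were picked after their values were seen. The values of 1 gene that this rule names are not reported here. Alternatives were other pseudocounts, filters, scalings, limma settings, a stricter threshold, a replicate block and leaving out each library. The median log2 change over tested genes was 0.38, moving to 0.65 by trimmed-mean rescaling and to −0.04 by quantile normalization. Promoters come from RefSeq (GRCm38.p6) and positions from GENCODE M21.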

Additional observations from a re-analysis of the deposited data

How the results depend on the processing

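Each of the 26 genes kept its direction and stayed past the threshold under every alternative that could be computed, which was 15 for each gene and 14 for 5 low genes left out by a filter of 5 FPKM. Log2 changes ran from 6.13 to 7.08 for H2-K1, from 3.88 to 5.33 for B2m, from 0.68 to 1.30 for Psmb10 and from −2.07 to −0.51 for H2-Q10, with a largest adjusted p of 0.0175 for H2-Q10. With the filter of 5 FPKM the count of class I genes lower in knockout was 0, because H2-Q10 was no longer tested. The comparison of class I with class II changed direction with the median gene in place of the sum, from 1.83 to 0.326. With quantile normalization the log2 changes of Calr, Hspa5 and Pdia3 turned, to −0.30, −0.052 and −0.13, and 4 of the 8 folding and loading genes were higher in knockout. With the replicate number as a block, 13 class I genes were higher and 1 lower, 5 class II genes were higher and 7 loading genes were higher. Deviations of same-numbered libraries correlated at −0.06, 0.08 and 0.11 over genes, and those of other pairs at −0.13 to 0.06. Values this low cannot tell whether same-numbered libraries were paired, for example by litter or batch. Depth in reads was not given, and values under 1 FPKM in wild type rest on few fragments, which limits ratios that divide by them.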

Other observations

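Relatives of class I outside the H2- genes moved in both directions. Of 17 listed, 8 were in the table, of which 6 rose and 2 fell. Of the 6 that rose, 2 passed the filter on low values through the knockout libraries alone. Procr, the endothelial protein C receptor and a class I-like molecule, stood at 2.53, 2.0 and 1.69 FPKM in wild type and at 978, 471 and 572 FPKM in knockout (log2 change 7.72, SE 0.28, limma adjusted p = 6.65e-07), lowest in knockout replicate 2, where H2-K1 was highest. Cd1d1, which presents lipids to natural killer T cells, fell from 9.13 ± 0.276 to 3.09 ± 1.08 FPKM (mean ± SD, n = 3 in each group). The ligands of the activating receptor NKG2D were split: Raet1d fell from 6.91 ± 1.82 to 1.42 ± 0.125 FPKM and Ulbp1 rose from 0.415 ± 0.109 to 2.71 ± 0.535 FPKM. Fcgrt, the neonatal Fc receptor that carries maternal antibody, stood at 9.11, 5.92 and 6.47 FPKM in wild type and at 14.8, 37.1 and 20.1 FPKM in knockout, and Mr1, which presents vitamin metabolites, at 1.21, 1.17 and 1.09 and at 2.57, 6.43 and 3.19 FPKM. Hfe, which controls iron uptake, passed narrowly (log2 change 0.37, limma adjusted p = 0.0276) and did not pass with a pseudocount of 0.1 (0.0582), a replicate block (0.0632), or without wild-type replicate 2 or 3 or knockout replicate 2 (0.092, 0.0967 and 0.0646).

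Of 19 listed receptors of class I, 2 were in the table and both rose, as did 47.2% of all tested genes. Both passed the filter on low values through the knockout libraries alone. Lilrb4a, an inhibitory receptor of myeloid cells, was at 11, 20.5 and 12 FPKM in knockout and at most 0.337 FPKM in wild type, and Pirb at 1.52, 1.7 and 1.26 FPKM against at most 0.0936.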
